A study of Homo sapiens with 6 samples.

Results

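The plasminogen activators, the urokinase receptor and serpins that inhibit the activators were followed in the RNA of PC3 cells. The 5 genes were SERPINE2, SERPINB2, PLAU, PLAUR and PLAT, taken by symbol from the 24462 gene symbols in the count tables. For each of them 1 row was used, and 4 of the 5 had enough reads to be tested. PC3 is an established human cell line that was grown from a bone metastasis of a prostate cancer. The cultures were transfected for 72 h with 80 nM of a non-targeting siRNA (si-Control, n = 3) or of siRNA against CITED2 (si-CITED2, n = 3), and RNA was sequenced from each of the 6 cultures. CITED2 is a transcriptional co-regulator that binds the acetyltransferases p300 and CBP. The study's methods give a single sequence for each of these siRNAs, and all cultures were of the same line, so an effect of that sequence and an effect of the loss of CITED2 cannot be told apart. The comparison asked which mRNAs differed between the cultures that received the targeting and the non-targeting siRNA.

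Plasminogen is a circulating zymogen that is cut to plasmin, a protease that dissolves fibrin and degrades matrix proteins. The cut is made by urokinase (uPA, encoded by PLAU), which acts on the cell surface when bound to its receptor (uPAR, encoded by PLAUR), and by tissue-type activator (tPA, encoded by PLAT), best known from the dissolution of blood clots. Serpins stop both activators by forming a covalent complex with them, and endocytic receptors then clear the complex. Urokinase and its receptor have long been studied in the invasion of prostate and other carcinoma cells.

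The total count ranged from 19508925 to 28936374 reads per library, and the scaling factors of the trimmed mean of M values (TMM) lay between 0.9926 and 1.013. No pair of replicates agreed within sampling noise, and their chi-square per degree of freedom was between 2.9 and 7.57. The keratins and EPCAM, 4 epithelial markers, summed to between 1650 and 2040 counts per 1000000 reads (CPM). The prostate luminal gene KLK2 had 0 reads in all libraries. Of 6 fibroblast markers COL1A1 alone passed 12 reads in any library, and the 3 endothelial markers summed to at most 0.83 CPM. The 4 leukocyte markers summed to between 122 and 146 CPM, nearly all of it from CD68 (2622 to 3947 reads), which many cell types express, while PTPRC had at most 2 reads. The 2 erythroid markers summed to 0 in all si-Control libraries and to between 0.93 and 1.38 CPM in the si-CITED2 libraries, with 20, 32 and 20 reads of HBB. HBB stood at rank 1 of all tested genes by the size of the rise. Its log2 fold change was 7.69 (SE 0.83, adjusted p = 1.13e-05, the quasi-likelihood test of edgeR with Benjamini-Hochberg adjustment). With 0 HBB reads in si-Control no ratio could be measured, so this size and the rank depend on how edgeR treats a count of 0. The part of the erythroid reads in the results was not tested. The targeted gene went against the labels at the level of mRNA. CITED2 had 859, 892 and 773 normalized counts (reads scaled to the mean library size) in the 3 si-Control libraries and 1084, 921 and 984 in those labelled si-CITED2. It was 1.18-fold higher in the latter (log2 fold change 0.24, SE 0.07, adjusted p = 0.0363, the quasi-likelihood test of edgeR with Benjamini-Hochberg adjustment). This call was lost without si-Control replicate 1 (0.25, adjusted p = 0.0536 in edgeR), si-Control replicate 3 (0.18, adjusted p = 0.141), si-CITED2 replicate 1 (0.17, adjusted p = 0.154) or si-CITED2 replicate 3 (0.25, adjusted p = 0.0846), and without TMM scaling (0.22, adjusted p = 0.0518). The study judged the knockdown by protein, and the groups below are named as the libraries are labelled.

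PLAU, PLAUR and SERPINE2 rose in the libraries labelled si-CITED2, while PLAT did not pass the test and SERPINB2 had no read. Thus 3 of the 4 tested genes were called higher at an adjusted p under 0.05 and 0 were called lower, where 9.36% of all 16314 tested genes were called higher and 8.09% lower. In 4 of the 4 all si-CITED2 libraries lay above all si-Control libraries, which held for 16.4% of all tested genes. The members were chosen with earlier results of these data known, so these shares are only a description. The plot of levels by library shows each culture. In bulk RNA, a larger share of cells expressing a gene and more of its RNA per cell cannot be told apart. The p-values measure the spread between these cultures, which the study describes as independent experiments.

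**Figure D1:**
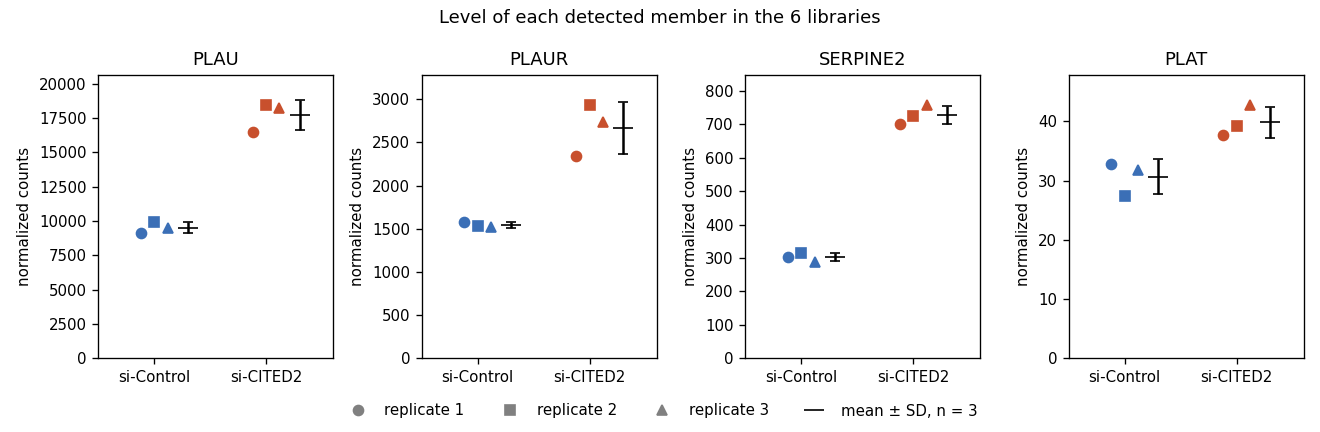
Normalized counts (vertical axes, from 0) of PLAU, PLAUR, SERPINE2 and PLAT in the 3 si-Control libraries (blue) and the 3 si-CITED2 libraries (orange), with symbols for the replicate and black bars for mean ± SD (n = 3). The groups are apart in each panel, widely for SERPINE2 (303 against 728 on average) and narrowly for PLAT (30.7 against 39.9).

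The sequences in front of the transcription starts were looked at because 3 of the genes rose together. RefSeq windows of 300 bases (GRCh38.p14, from 250 bases before a start to 50 after it) were at hand for PLAU and SERPINE2, each with a pair of starts, and for PLAUR and SERPINB2. Motifs were searched as letters on both strands, AP-1 as TGANTCA, AP-2 as GCCNNNGGC, Sp1 as GGGCGG, the TATA box as TATAAA, a single SMAD site as CAGAC and a doubled one as GTCTAGAC. Of 35116 such windows, 7.71% held the AP-1 letters, 23.2% AP-2, 45% Sp1, 11.5% TATA, 45.3% CAGAC and 0.202% GTCTAGAC. The single PLAUR window held 1 AP-1 match and no Sp1 match. The window at the downstream PLAU start held 1 AP-2 match and 3 Sp1 matches, and that at the upstream start held none of AP-1, AP-2, Sp1 or TATA. The SERPINE2 windows held 2 and 1 Sp1 matches and no AP-1 match. The SERPINB2 window held 1 AP-1 match and 1 TATA match. CAGAC stood in the windows of PLAU, PLAUR and SERPINB2 and GTCTAGAC in none. None of the motifs searched was therefore shared by all windows of the 3 genes that rose. Sequence outside these windows was not searched, so sites farther from the starts would be missed. The AP-1, AP-2 and Sp1 matches of the 3 genes are printed below with up to 10 bases on each side, on the strand of the gene, so that the common Sp1 letters can be set against the AP-1 site of PLAUR. Capitals mark the motif. A match is a string of letters and not a measured binding site. In GENCODE 29 the PLAUR stretch lies in an exon of another PLAUR transcript, the PLAU stretches lie in exon sequence of C10orf55 on the opposite strand, the last of them also in an exon of PLAU, and the SERPINE2 stretches lie in no exon.
PLAUR, AP-1, 186 bases before the start, chr19:43670339-43670365, minus strand: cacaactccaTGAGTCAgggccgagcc
PLAU, AP-2, 242 bases before the start, chr10:73910882-73910908, plus strand: tggggcagGCCCCCGGCcaggtgcatg
PLAU, Sp1, 66 bases before the start, chr10:73911056-73911081, plus strand: ggagggagccGGGCGGgagagggagg
PLAU, Sp1, 51 bases before the start, chr10:73911071-73911096, plus strand: ggagagggagGGGCGGcgccggggcg
PLAU, Sp1, 40 bases before the start, chr10:73911082-73911107, plus strand: ggcggcgccgGGGCGGgccctgatat
SERPINE2, Sp1, 230 bases before the first start, chr2:224038855-224038880, minus strand: catcccggtcCCGCCCgccgggagcc
SERPINE2, Sp1, 183 bases before the first start, chr2:224038808-224038833, minus strand: caaggcggggCCGCCCcggggtggcg
SERPINE2, Sp1, 50 bases before the second start, chr2:224031513-224031538, minus strand: caatggctgtGGGCGGaggagggagg

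PLAU, the gene of urokinase, lies on the plus strand of chromosome 10 (73909177 to 73917497, GENCODE 29 on GRCh38). It was by far the most abundant of the 5 genes, at the 98.8th percentile of level among all tested genes. The si-Control libraries 1, 2 and 3 held 10231, 12288 and 8093 PLAU reads, which scaled to 9093, 9893 and 9522 normalized counts. The si-CITED2 libraries held 13545, 19297 and 16643 reads, or 16450, 18440 and 18230 normalized counts. The lowest si-CITED2 library, replicate 1, still stood far above the highest si-Control library. The mean rose from 9503 ± 400.3 to 17710 ± 1095 normalized counts (SD, n = 3), a 1.86-fold rise (95% confidence interval 1.72 to 2.02). The log2 fold change was 0.90 (SE 0.05, adjusted p = 3.69e-09 by the quasi-likelihood test of edgeR with Benjamini-Hochberg adjustment), and PLAU stood at rank 328 of all tested genes by the size of the rise.

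The exons of PLAU overlap those of C10orf55 on the opposite strand. The genes share 916 exon bases in GENCODE 29, which are 36.4% of the exon bases of C10orf55 and 31.1% of those of PLAU. C10orf55 had 1746, 2133 and 1462 reads in the si-Control libraries and 2408, 3399 and 2965 in the si-CITED2 libraries, so it was high in the same cultures as PLAU. It rose with a log2 fold change of 0.92 (SE 0.06, adjusted p = 1.07e-08 in edgeR). For every 100 PLAU reads there were 17.1, 17.4 and 18.1 C10orf55 reads in the si-Control libraries and 17.8, 17.6 and 17.8 in the si-CITED2 libraries, a mean of 17.6 ± 0.357 over the 6. The ratio thus stayed nearly constant while both counts changed, as the plot of C10orf55 against PLAU shows. Whether strand was used in the counting is not given in the sources used here, and without it reads of these genes over the shared bases cannot be told apart. With the C10orf55 reads added to those of PLAU the log2 fold change of PLAU was again 0.90 (SE 0.05). Because the ratio was nearly constant, this addition could hardly change the value, and it does not tell the reads of the genes apart.

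**Figure D2:**
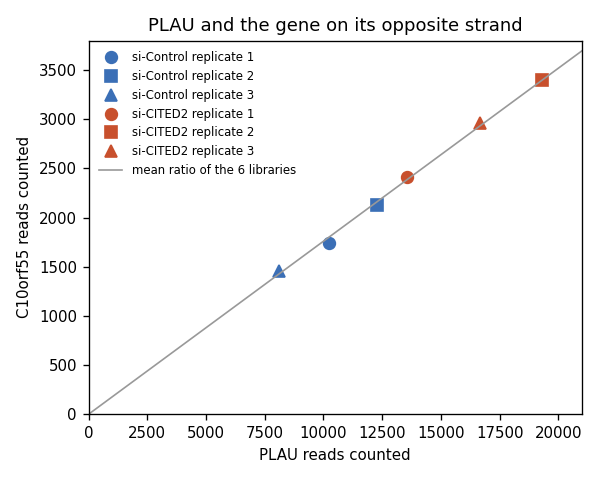
Reads counted for C10orf55 (vertical axis) against reads counted for PLAU (horizontal axis) in each of the 6 libraries, si-Control in blue and si-CITED2 in orange, before any scaling. The grey line is the mean ratio, 17.6 C10orf55 reads per 100 PLAU reads, and all libraries lie between 17.1 and 18.1.

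PLAT, the gene of tissue-type activator, was the least abundant of the tested genes, at the 14th percentile. It had 37, 34 and 27 reads in the si-Control libraries and 31, 41 and 39 in those labelled si-CITED2. After scaling these became 32.9, 27.4 and 31.8 against 37.6, 39.2 and 42.7 normalized counts. The groups did not overlap, though the gap between si-Control replicate 1 and si-CITED2 replicate 1 was smaller than the spread within either group. The mean was 30.7 ± 2.91 in si-Control, against 39.9 ± 2.61 in si-CITED2 (SD, n = 3). The difference did not pass the test (log2 fold change 0.38, SE 0.24, adjusted p = 0.315 by the quasi-likelihood test of edgeR with Benjamini-Hochberg adjustment). Counting error alone gave coefficients of variation of 15.6% to 19.2% per library at this depth. The 95% confidence interval of the ratio ran from 0.922 to 1.84, which holds both no difference and a rise as large as that of PLAUR.

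PLAUR encodes the urokinase receptor, a protein held on the outer membrane by a glycolipid anchor, and lies on the minus strand of chromosome 19 (43646095 to 43670547). Its level was at the 83.6th percentile. The si-Control libraries had 1775, 1908 and 1291 reads, or 1578, 1536 and 1519 normalized counts, and were close to each other. The si-CITED2 libraries had 1925, 3067 and 2501 reads, or 2337, 2930 and 2740 normalized counts. All of these were higher, but they were spread more widely, with a coefficient of variation of 11.3% against 1.95% in si-Control, and replicate 1 was again the lowest. The mean rose from 1544 ± 30.1 to 2669 ± 303 normalized counts (SD, n = 3), which is 1.73-fold (95% confidence interval 1.56 to 1.92). The log2 fold change was 0.79 (SE 0.07, adjusted p = 4.31e-07, the quasi-likelihood test of edgeR with Benjamini-Hochberg adjustment). It was 0.88 without si-CITED2 replicate 1 and 0.72 without si-CITED2 replicate 2.

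SERPINE2 encodes protease nexin-1, a secreted serpin that inhibits thrombin, urokinase, tissue-type activator and plasmin. The gene lies on the minus strand of chromosome 2 (223975112 to 224039319). It was of middling abundance, at the 53.8th percentile. Its reads numbered 342, 391 and 246 in si-Control, against 577, 759 and 691 in si-CITED2. The normalized counts were 304, 315 and 289 in si-Control, against 701, 725 and 757 in si-CITED2, so that the groups were separated by more than the whole level of any si-Control library. The mean rose from 303 ± 12.7 to 728 ± 28.3 normalized counts (SD, n = 3). This 2.4-fold rise (95% confidence interval 2.14 to 2.69) was the largest among the 4 tested members and stood at rank 175 of all tested genes. The log2 fold change was 1.26 (SE 0.08, adjusted p = 5.41e-09 by the quasi-likelihood test of edgeR with Benjamini-Hochberg adjustment).

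SERPINB2 encodes an inhibitor of urokinase and tissue-type activator that is made by macrophages and keratinocytes. It had 0 reads in each of the 6 libraries and was not tested. A count of 0 allows up to 3 reads, which corresponds to between 0.103 and 0.155 CPM in single libraries and to 0.0212 CPM over the 141358097 reads of all libraries, counting error only. The neighbouring SERPINB10, whose annotated span overlaps it and which was named after its values were seen, had 0 reads as well. A difference in SERPINB2 was therefore not detectable at this depth.

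Levels of different genes were compared per length, as CPM per kilobase of the longest coding transcript. In si-Control the order was PLAU (152 ± 6.39), PLAUR (40.7 ± 0.794), SERPINE2 (5.0 ± 0.21) and PLAT (0.481 ± 0.0457) (SD, n = 3). In si-CITED2 it was the same, with PLAU at 283 ± 17.5, PLAUR at 70.4 ± 7.98, SERPINE2 at 12 ± 0.468 and PLAT at 0.625 ± 0.0409 CPM per kilobase. No neighbours in this order overlapped in either group, and the order was also the same with the mean length of the coding transcripts. SERPINE2 was thus well below urokinase and its receptor in both groups.

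The ratio of reads of a pair of genes within a library does not depend on the scaling between libraries. SERPINE2 had 3.34, 3.18 and 3.04 reads per 100 PLAU reads in si-Control, against 4.26, 3.93 and 4.15 in si-CITED2. The mean was 3.19 ± 0.152 against 4.12 ± 0.166 (SD, n = 3), without overlap, so the mRNA of the inhibitor was higher relative to that of urokinase in each si-CITED2 library. The ratio of SERPINE2 to PLAUR was higher too, at 19.3, 20.5 and 19.1 reads per 100 in si-Control, against 30, 24.7 and 27.6 in si-CITED2. PLAUR had 17.3, 15.5 and 16 reads per 100 PLAU reads in si-Control, against 14.2, 15.9 and 15 in si-CITED2. Here the groups overlapped, with means of 16.3 ± 0.953 and 15 ± 0.841 (SD, n = 3). PLAT had 0.324 ± 0.0433 reads per 100 PLAU reads in si-Control, against 0.225 ± 0.0114 in si-CITED2, without overlap. The remaining ratios, of SERPINE2 and of PLAUR to PLAT, were both higher in si-CITED2, and the plot of ratios by library gives those to PLAU and PLAUR. In exact two-sided permutation tests the smallest p that 3 against 3 libraries allow, 0.1, was reached by 5 of the 6 pairs (0.12 after Benjamini-Hochberg adjustment), and PLAUR to PLAU gave an exact p of 0.2. No pair could pass 0.05 in this design.

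**Figure D3:**
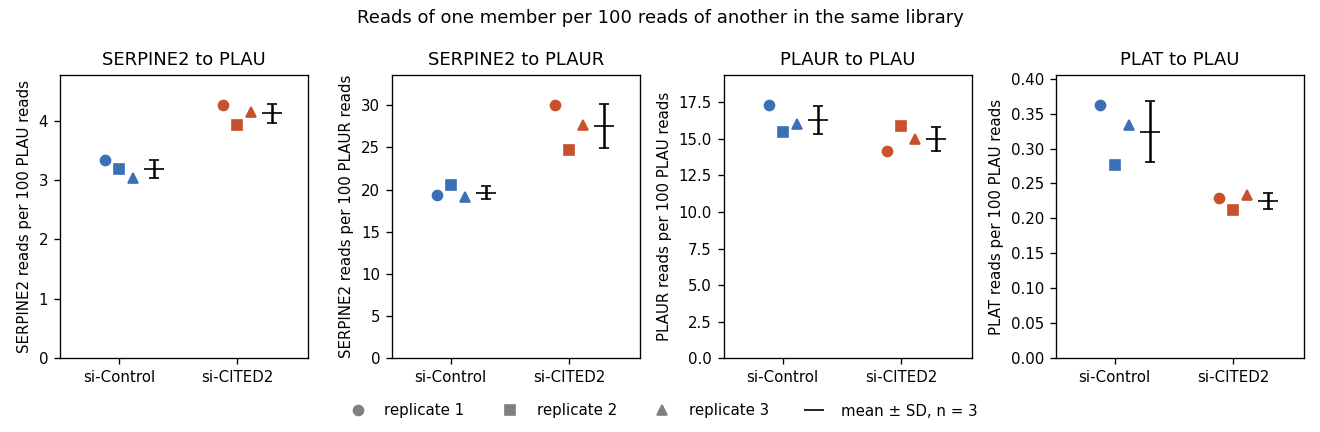
Reads of SERPINE2, PLAUR or PLAT per 100 reads of PLAU or PLAUR in the same library (vertical axes, from 0), si-Control in blue and si-CITED2 in orange, with a symbol for each replicate and black bars for mean ± SD (n = 3). SERPINE2 to PLAU goes from 3.19 to 4.12 on average and PLAT to PLAU from 0.324 to 0.225, while the groups overlap for PLAUR to PLAU.

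The rest of the system was followed in 6 lists that held 65 genes, of which 36 were tested. Of these, 9 were called higher (25%, against 9.36% of all tested genes) and 5 lower (13.9%, against 8.09%), and the median log2 fold change was 0.10, against -0.001 for all tested genes. The lists were chosen with earlier results of these data known, so these shares are only a description. The plot of fold changes shows every tested gene of the lists beside the members. The plasminogen gene PLG itself, which is expressed mainly in liver and was named after its values were seen, had 2, 5 and 2 reads in si-Control, against 3, 1 and 3 in si-CITED2. The mRNA of the substrate was thus near the limit of detection in both groups.

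Among 7 other protease inhibitors, listed here for the activators or plasmin, 4 were tested and 0 were called in either direction (median log2 fold change 0.17). Whether each of them acts on the activators or on plasmin was not examined. The most abundant were SERPINB6, an intracellular serpin, at 2349 ± 101 and 2518 ± 85.4 normalized counts (SD, n = 3), and SERPINB8 at 227 ± 24.9 and 235 ± 36.9. Of 25 further serpins, 8 were tested, 5 had no read in any library, and 1 was called higher (median -0.10). This was SERPINB5, or maspin, known as a suppressor of invasion in epithelial cells, with 65.9 ± 8.66 and 101 ± 10.8 normalized counts (log2 fold change 0.61, SE 0.17, adjusted p = 0.0209 in edgeR). The call was lost without si-Control replicate 1 (0.50, adjusted p = 0.0625), without si-CITED2 replicate 3 (0.52, adjusted p = 0.112) and in DESeq2 (0.61, adjusted p = 0.0511). Together 1 of these 12 tested serpins was called higher, a share near the 9.36% of all tested genes.

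The receptors that bind or clear urokinase complexes and the partners of the urokinase receptor held 16 genes, of which 11 were tested. In this list 5 were called higher (45.5%, against 9.36% of all tested genes) and 3 lower (27.3%, against 8.09%), and the median log2 fold change was 0.16. This list too was chosen with earlier results of these data known, so its shares are only a description. The 5 that rose were integrin subunits, of which 6 were tested, and some of these bind vitronectin or fibronectin and are known to associate with the urokinase receptor. ITGB3 rose from 240.4 ± 9.3 to 727 ± 22.4 normalized counts (log2 fold change 1.59), ITGAV by 1.34, ITGB5 by 1.04, ITGA5 by 0.90 and ITGB1 by 0.34 on the log2 scale. The remaining subunit, ITGA3, had 19400 ± 652 and 18300 ± 261 normalized counts and was not called (log2 fold change -0.08, adjusted p = 0.238 in edgeR). ITGB1 and ITGA3 were named after their values were seen. The log2 fold changes of ITGB3, ITGAV and ITGB5 were larger than those of PLAU and PLAUR, a difference that was not tested. The 3 that fell were among the 5 tested endocytic or sorting receptors. SORL1, a sorting receptor, fell by 0.35, LRP8 by 0.28 and IGF2R, the receptor for mannose 6-phosphate, by 0.15 on the log2 scale. In edgeR LRP8 was not called without si-Control replicate 2 (-0.26, adjusted p = 0.0555), si-Control replicate 3 (-0.23, adjusted p = 0.0591) or si-CITED2 replicate 1 (-0.21, adjusted p = 0.0597). IGF2R was called with all libraries (adjusted p = 0.0476 in edgeR) and without si-Control replicate 1, and was not called without si-Control replicate 2 (-0.11, adjusted p = 0.244), si-Control replicate 3 (-0.15, adjusted p = 0.101) or si-CITED2 replicates 1, 2 or 3 (-0.14, -0.16 and -0.15, adjusted p = 0.104, 0.11 and 0.131). LRP1, the receptor best known for the uptake of urokinase bound to serpins and named here after its values were seen, had 4278 ± 400.2 and 4758 ± 136 normalized counts and was not called (log2 fold change 0.15, adjusted p = 0.0974 in edgeR). VLDLR, also named after its values were seen, had 766 ± 76.8 and 858 ± 9.64 normalized counts and was not called either (log2 fold change 0.16, adjusted p = 0.163 in edgeR). Calls were gained as well as lost when single libraries were left out. With si-Control replicate 2 or si-Control replicate 3 left out, 6 genes of this list were called higher and 1 lower.

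Of plasminogen and 4 proteins that bind it at the cell surface, 4 genes were tested, with 1 called in each direction (median log2 fold change -0.01). That is 25% higher and 25% lower, against 9.36% and 8.09% of all tested genes. S100A10, a plasminogen receptor that pairs with annexin A2, rose by 0.31 on the log2 scale (adjusted p = 0.000262 in edgeR). ENO1, a glycolytic enzyme also found on the cell surface, fell by 0.17 (adjusted p = 0.0141), and was not called without si-CITED2 replicate 2 (-0.17, adjusted p = 0.0797) or replicate 3 (-0.16, adjusted p = 0.0852). Of 6 proteases that convert the urokinase zymogen to the active enzyme, 4 were tested and 0 called (median 0.05). Without si-CITED2 replicate 1, 1 of these proteases was called higher. The most abundant were the cathepsins CTSB (7036 ± 133 and 7719 ± 478 normalized counts) and CTSL (5671 ± 239 and 5440 ± 343). Of 6 further modulators of plasmin and of surface proteases, 5 were tested, 2 were called higher and 1 lower (median 0.19). That is 40% higher and 20% lower, against the same 9.36% and 8.09%. TFPI2, an inhibitor of plasmin and trypsin found in the matrix, rose from 679 ± 56.3 to 1715 ± 98.4 normalized counts (log2 fold change 1.33). SPINT1, a membrane inhibitor of matriptase and hepsin, rose by 0.56 and TFPI, the inhibitor of tissue factor and factor Xa, fell by 0.33 on the log2 scale. The largest rises of inhibitors among the genes described were thus those of TFPI2 and SERPINE2.

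**Figure D4:**
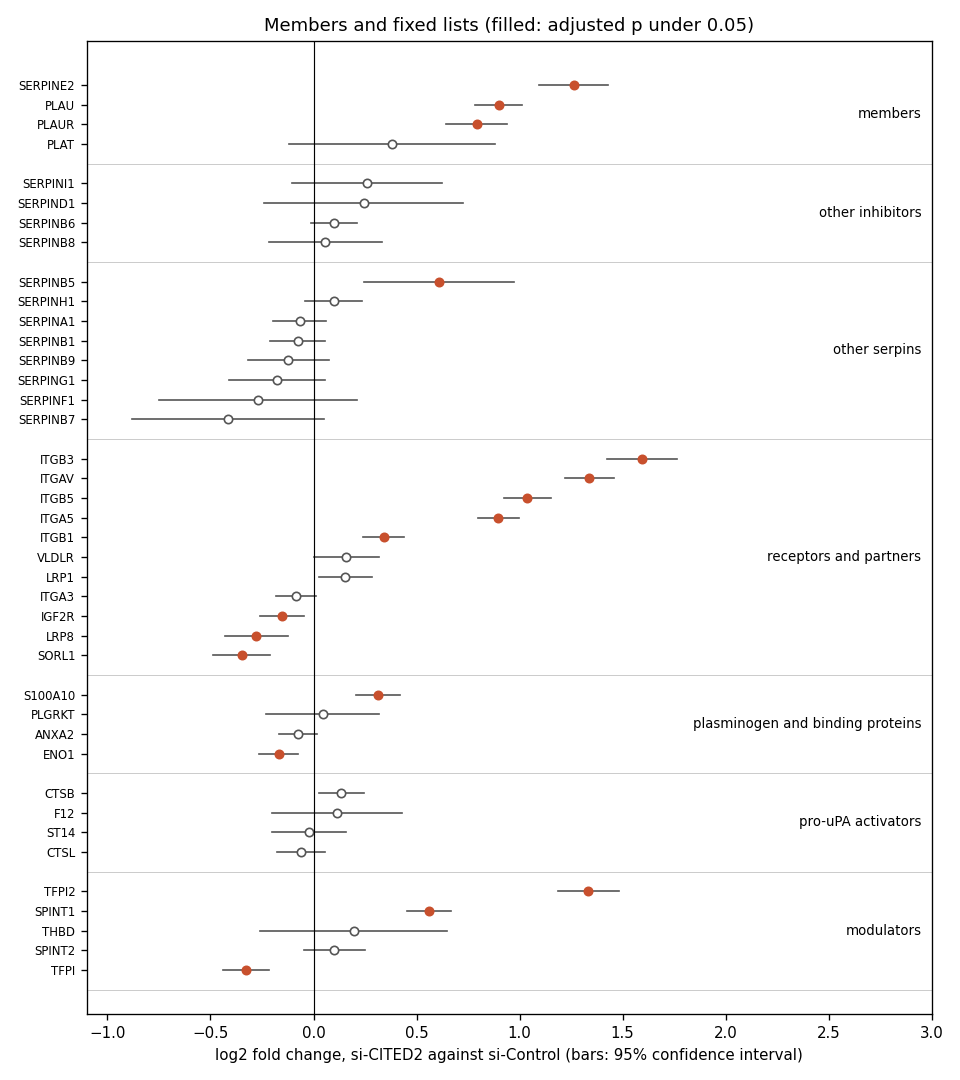
Log2 fold change of si-CITED2 against si-Control (horizontal axis) for the 4 tested members and the 36 tested genes of the lists, grouped by list, with 95% confidence intervals from edgeR. Filled points passed an adjusted p of 0.05: 3 of the 4 members, and 14 of the list genes, of which 9 lie above 0 and 5 below.

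The genes whose log2 CPM followed each member most closely over the 6 libraries were looked up among the 12211 genes whose mean reached 100 normalized counts in one of the groups. For PLAU these were YWHAZ (Pearson r = 0.9988), a 14-3-3 protein, and C10orf55 (0.9986), which shares exon bases with it. For PLAUR they were DUSP7 (0.9976), a phosphatase of the kinase ERK, and GALNT2 (0.9976), an enzyme of O-glycosylation. For SERPINE2 they were WDR66 (0.9997) and STARD13 (0.9995), and for PLAT they were ASL (0.9964) and MLPH (0.9858). These r values are a description. The 6 libraries form 2 groups, so a gene that differs between them and varies little within them gives a high r whatever the size of its change, and YWHAZ rose by 0.22 on the log2 scale where PLAU rose by 0.90.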

How the data were processed

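RNA-seq of 6 PC3 cultures was used. The authors deposited whole-number counts of reads per gene symbol, 1 table per culture, without normalization. The submitters' processing notes name TopHat, edgeR and the build hg19, without versions or roles. The counting program and its use of strand are not given in the sources used here. Of 25737 rows, 1275 repeats of a symbol with fewer reads were left out.

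The main test was run with edgeR 4.0.16 under R 4.3.3 (filterByExpr, TMM, glmQLFit and glmQLFTest without a block, Benjamini-Hochberg adjustment over the 16314 genes tested, calls at an adjusted p under 0.05). The standard error came from the F statistic. For normalized counts, each library was scaled by its TMM-adjusted size to the mean size of the 6 libraries. Log2 CPM used a prior count of 2, and 2 was added to each count for the permutation tests of ratios. DESeq2 1.42.0 was an alternative. Lengths and positions came from GENCODE 29 and promoter windows from RefSeq, both on GRCh38, and no coordinate was converted. Scripts were tested on simulated data. The members and lists were chosen with earlier results of these data known. Named from each list were up to 4 called genes per direction with the largest log2 fold change or, with none called, the 2 with the highest level, and for each member the 2 genes with the highest r. Genes named outside this rule are marked as such. Some marker genes that had been listed are not reported here.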

Additional observations from a re-analysis of the deposited data

How the results depend on the processing

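PLAU, PLAUR and SERPINE2 were called higher under each alternative run, which were library size without TMM, upper-quartile scaling, DESeq2, 2 other filters on low counts, repeated symbols summed, the replicate number as a block and each replicate left out in turn. Their log2 fold changes ranged from 0.87 to 0.95, from 0.72 to 0.88 and from 1.23 to 1.29. PLAT was called under 0 of its 13 alternatives (0.30 to 0.44, adjusted p from 0.273 to 0.564 in edgeR or DESeq2). The addition of C10orf55 to PLAU and the ratios without single libraries were chosen after seeing the data, and no ratio changed direction. Library size without TMM turned the balance of all calls, with 1390 genes called higher and 1530 lower against 1527 and 1319. Leaving out single replicates gave between 1135 and 1519 genes called higher and between 881 and 1328 called lower. The replicate numbers did not pair the samples: deviations of samples with the same number had correlations of -0.04, 0.03 and -0.01, 0 of 3 over 0.1, and 1 of 3 samples correlated best with its own number. With the replicate block the log2 fold changes were 0.90 for PLAU, 0.78 for PLAUR, 1.26 for SERPINE2 and 0.38 for PLAT, with 1405 genes called higher and 1154 lower, and IGF2R was no longer called (-0.15, adjusted p = 0.0575 in edgeR). Depth limited PLAT, with 27 to 41 reads, and SERPINB2, with 0.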
